A study of Mus musculus with 8 samples.

Results

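The genes described here encode the ligands and receptors of axon guidance and the pair of intracellular exchange factors Kalrn and Trio, measured in the buccal (cheek) epithelium of mice. Members were the protein-coding genes whose symbols belong to the semaphorin, plexin, neuropilin, ephrin, Eph receptor, netrin, Unc5, Slit and Robo families, with Dcc, Neo1, Kalrn and Trio. The rule for members goes by gene symbol and type, and it was chosen with earlier results of these data known. It gave 71 genes of the 23355 in the table, all 71 among its 16006 protein-coding genes. Of these, 54 had enough reads to be tested and 17 did not. The libraries came from C57BL/6 wild-type mice without any treatment, housed free of specific pathogens, and compared 4 animals aged 8 weeks with 4 animals aged 1 week. Dispase II was used to lift the epithelium off the oral mucosa, and its epithelial cells were then isolated by flow sorting. Total RNA was made into stranded libraries with a low-input kit that removes ribosomal RNA. The sex of the mice and the sorting gate were not given in the sources used here.

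Axon guidance proteins were first described as cues that attract or repel growing axons, and epithelia use the same proteins to control adhesion, cell shape and migration. Semaphorins signal through plexins, for which neuropilins serve as co-receptors for most secreted semaphorins. Ephrins are bound to the cell membrane and signal through Eph receptor tyrosine kinases on touching cells. Netrins bind Dcc, neogenin and the Unc5 receptors, and slits bind Robo receptors. Kalrn and Trio load GTP onto small GTPases, the switches through which many of these receptors reach the actin skeleton.

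Library depth was 13037171 to 16807773 gene counts at 8 weeks and 11747783 to 13169992 at 1 week. All 10 epithelial markers (Krt5, Krt14, Epcam and others) were measured, and their summed level was 33699 to 41669 CPM (counts scaled to the size of the library) at 8 weeks and 38837 to 44425 CPM at 1 week, with 0 of the 10 called different. Of the markers of other cells, neuronal ones summed to 9.05 to 23.6 CPM at 8 weeks and 25.8 to 44.6 CPM at 1 week, with 5 of 7 under 1 CPM in every library. Both neuronal markers that could be tested, Stmn2 and Tubb3, were lower at 8 weeks (log2 fold changes -2.65 and -1.05, adjusted p = 0.0129 and 0.0442). The 7 fibroblast markers summed to 400 to 776 CPM at 8 weeks and 923 to 1161 CPM at 1 week, almost all of it Dcn, and 5 of the 7, Col1a1 among them, were under 1 CPM in every library. Erythroid markers summed to 22.9 to 71.4 CPM at 8 weeks and 3.38 to 13.7 CPM at 1 week, and 3 of the 5 tested were higher. Of the Merkel cell and immune lists, Krt18 and H2-Ab1 were lower and Piezo2 was higher. The part of these cells in the differences below was not tested. In bulk RNA, fewer cells of a type and less RNA per cell cannot be told apart.

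At 8 weeks, 10 of the 54 tested members were higher than at 1 week and 1 was lower. The higher ones were the semaphorins Sema3d, Sema4a, Sema5a and Sema6c, the plexins Plxna1, Plxna3 and Plxnb1, the netrin receptor Unc5a, and the exchange factors Kalrn and Trio. The lower one was Sema3e. The ephrins, Eph receptors, neuropilins, netrins, slits and Robo receptors gave 0 calls. The test was the quasi-likelihood F test of edgeR over all 14533 tested genes, with a call at a Benjamini-Hochberg adjusted p under 0.05. The share of members called was 20.4%, against 6.55% of all tested genes, and the share called higher was 18.5%, against 3.33%, with 3.22% of all tested genes called lower. At an unadjusted p under 0.05 the test gave 18 members higher and 4 lower. The share of all tested genes at that level was not worked out. This split, and the family counts at that level below, therefore stand without a baseline. The DESeq2 Wald test, which called 13.8% of the genes with an adjusted p, gave 16 higher and 1 lower, the lower one being Efna1 in place of Sema3e. Limma-voom, which called 11.3%, gave 14 higher and 2 lower, Sema3e and Efna1. Over all genes the calls were 484 higher and 468 lower at 8 weeks, or 588 higher and 255 lower when libraries were scaled by their size alone. The log2 fold changes of the members lay on both sides of 0, with 27 positive and 27 negative log2 fold changes, where 49.8% of all tested genes had a positive one, and a median of 0.01, beside -0.00 over all tested genes. In 13 members (24.1%) every 8-week library lay above every 1-week library, against 7.69% of all tested genes, and in 4 every one lay below, against 7.11% of all tested genes.

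Transcript length moved with the difference between the ages. Tested protein-coding genes were put into 5 bins of about equal size by the length of their longest transcript. Of the bin with the longest transcripts (5406 bp or more), 13.7% were called, 12.3% as higher and 1.39% as lower. Of the bin with the shortest, 0.651% were called as higher and 6.92% as lower. The median log2 fold change went up through the bins, at -0.25, -0.11, -0.02, 0.06 and 0.21. Members are long, with a median of 5360 bp in those tested, beside 3468 bp over protein-coding genes tested, and 44 of the 54 lay above that median. The bin with the longest transcripts held 27 members, of which 7 were called higher and 1 lower, and their median log2 fold change was 0.03, under the 0.21 of all genes in that bin. With a correction for length and GC content inside each library, 3 members stayed called higher (Kalrn, Unc5a and Sema3d) and 1 lower (Sema3e). That is 7.41% of the 54, against 2.76% of all tested genes, of which 1.2% were higher and 1.56% lower. What gives rise to the length trend was not tested, and each called member below carries its corrected value. With the correction and 1 library left out as well, a choice made after seeing the data, Kalrn, Unc5a and Sema3d each lost their call in 6 of 8 fits and Sema3e in 5.

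**Figure D1:**
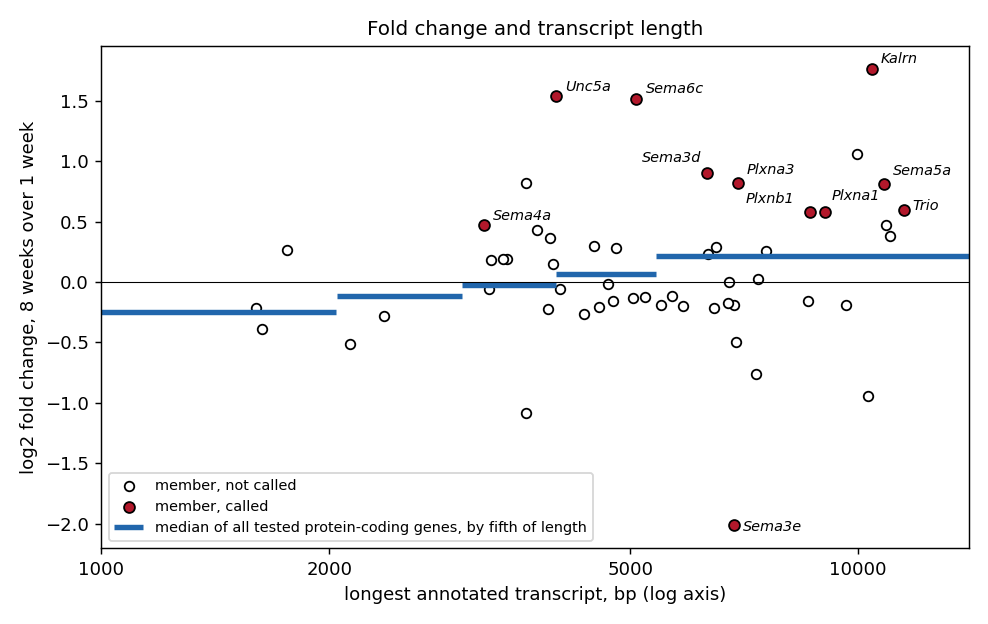
Log2 fold change (8 weeks over 1 week, vertical axis) of each tested member against the length of its longest transcript (horizontal axis, log scale), with the median of all protein-coding genes in each of 5 length bins. The medians of all genes climb across the bins to 0.21, and 7 of the 10 members called higher lie in the bin with the longest transcripts.

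Single libraries also weighed on these calls. Library 8 weeks 1 or 8 weeks 3 had the highest value of all libraries in 10 of the 10 members called higher, and 8 weeks 2 had the lowest of the 8-week values in 9 of them. These members were picked by the test on the same libraries, and the shares among all genes called higher were not worked out. Without 8 weeks 3, 0 members were called, and 0.615% of all tested genes were. Without 8 weeks 1 the test gave 1 member higher (0.919% of all genes called), and without 1 week 1 it gave 2 higher (0.868%). Leaving out 8 weeks 4 left 5 higher and 0 lower (2.52%), while without 8 weeks 2 the counts were 12 higher and 2 lower (12.6%). Without 1 week 2 or 1 week 3 the count was 7 higher and 1 lower in each case (4.11% and 4.8%), and without 1 week 4 it was 11 higher and 1 lower (5.18%). The slope of expression on length, in log2 units per doubling of length, was 0.20 and 0.15 in 8 weeks 1 and 8 weeks 3, -0.02 and 0.03 in 8 weeks 2 and 8 weeks 4, and -0.17, -0.05, -0.07 and -0.07 in 1 week 1 to 1 week 4.

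**Figure D2:**
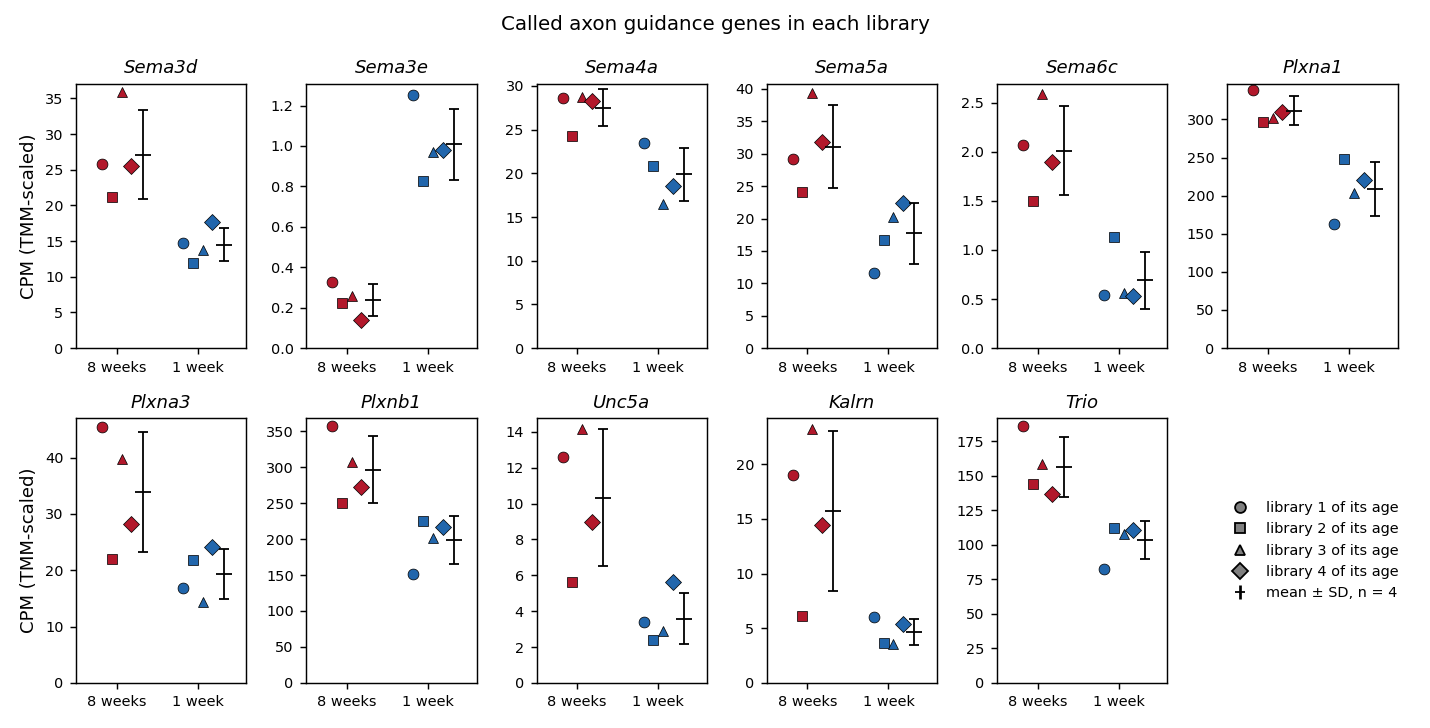
CPM (vertical axis, from 0) of each called member in each of the 8 libraries, with 8 weeks left of 1 week, a symbol for each library and the mean ± SD of each age (n = 4) beside the points. In 9 of the 10 members called higher every 8-week library lies above every 1-week library, and Plxna3 is the exception. The test on these same libraries picked the members shown, so this count is not separate evidence.

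Kalrn, Unc5a, Sema3d and Sema3e were the members called both with and without the length and GC correction, so the 250 bases before the RefSeq start of each are shown (RefSeq, GRCm38.p6, read along the strand of the gene). They are chr16:34514028-34514277 on the minus strand and chr13:54949161-54949410, chr5:12382916-12383165 and chr5:14025026-14025275 on the plus strand. Capitals mark GC boxes.
Kalrn: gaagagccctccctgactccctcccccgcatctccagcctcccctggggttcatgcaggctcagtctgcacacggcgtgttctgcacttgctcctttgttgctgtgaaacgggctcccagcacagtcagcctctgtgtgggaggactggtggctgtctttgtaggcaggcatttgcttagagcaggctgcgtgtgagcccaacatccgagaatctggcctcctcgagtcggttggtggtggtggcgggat
Unc5a: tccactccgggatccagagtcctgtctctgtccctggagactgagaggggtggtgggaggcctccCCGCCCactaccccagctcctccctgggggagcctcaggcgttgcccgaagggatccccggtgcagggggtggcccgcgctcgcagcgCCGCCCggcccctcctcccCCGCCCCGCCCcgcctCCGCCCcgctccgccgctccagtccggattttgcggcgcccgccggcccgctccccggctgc
Sema3d: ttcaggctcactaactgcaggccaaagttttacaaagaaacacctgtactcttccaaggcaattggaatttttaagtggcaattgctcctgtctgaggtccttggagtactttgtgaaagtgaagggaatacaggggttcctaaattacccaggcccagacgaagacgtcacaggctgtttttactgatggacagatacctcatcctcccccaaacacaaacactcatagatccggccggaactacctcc
Sema3e: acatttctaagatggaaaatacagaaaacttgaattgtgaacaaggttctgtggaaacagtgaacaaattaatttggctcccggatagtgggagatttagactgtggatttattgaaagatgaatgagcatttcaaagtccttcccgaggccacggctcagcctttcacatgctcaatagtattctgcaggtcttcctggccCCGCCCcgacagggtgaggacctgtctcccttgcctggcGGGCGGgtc
4 motifs were searched on both strands: the AP-1 site TGANTCA, the TEAD site GGAATG, the GC box GGGCGG and the TATA box TATAAA. Matches could overlap. The GC box was found 5 times before Unc5a, where 2 of the matches share 1 base, and 2 times before Sema3e, and 0 times before Kalrn and Sema3d. No AP-1, TEAD or TATA letters were found in these 4 windows. Of 32536 RefSeq promoters of the same length, 33.0% held a GC box, 6.73% the AP-1 letters, 12.6% the TEAD letters and 12.3% the TATA letters. GC content was 76.8% before Unc5a, 60.8% before Kalrn, 48.0% before Sema3e and 46.8% before Sema3d, beside a median of 52.4% over all promoters. The RefSeq start of Kalrn lies 59505 bp inside the gene of the deposited table and that of Sema3d 219 bp before the start in the table, and other starts of these genes are not shown. RefSeq promoters were at hand for 61 of the 71 members and 10 of the 11 called.

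By level per transcript length, the buccal epithelium carried most RNA of Plxnb2, Efnb1, Plxna1, Plxnb1 and Sema3f. Efnb1, a membrane ephrin, had 37.0 ± 3.50 CPM per kb at 8 weeks and 38.5 ± 5.36 CPM per kb at 1 week (SD, n = 4 each here and below). Plxnb2, a receptor of class 4 semaphorins, had 40.5 ± 2.14 CPM per kb at 8 weeks and 33.0 ± 3.53 CPM per kb at 1 week. Plxna1, a plexin that pairs with neuropilins, had 34.5 ± 2.07 CPM per kb at 8 weeks and 23.1 ± 3.94 CPM per kb at 1 week, and Sema3f, a secreted repellent, had 30.6 ± 2.04 CPM per kb at 8 weeks and 26.9 ± 3.02 CPM per kb at 1 week. At 8 weeks the level of Efnb1 lay between those of Plxnb2 and Plxna1, and its mean ± SD overlapped both, so these neighbours did not differ beyond their spread. At the low end of the tested members, Sema3e had 0.0346 ± 0.0113 CPM per kb at 8 weeks and 0.147 ± 0.0259 CPM per kb at 1 week. The 17 members too low to test had 11 to 54 counts summed over the 8 libraries and at most 1.29 CPM in any library. They were Sema3a, Sema3g, Sema4f, Sema5b, Sema6b, Sema7a, Plxna4, Plxnb3, Plxnc1, Efnb3, Epha3, Epha6, Epha8, Epha10, Ntn1, Unc5d and Robo3. The edgeR test left them out, so a difference in them was neither shown nor excluded.

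**Figure D3:**
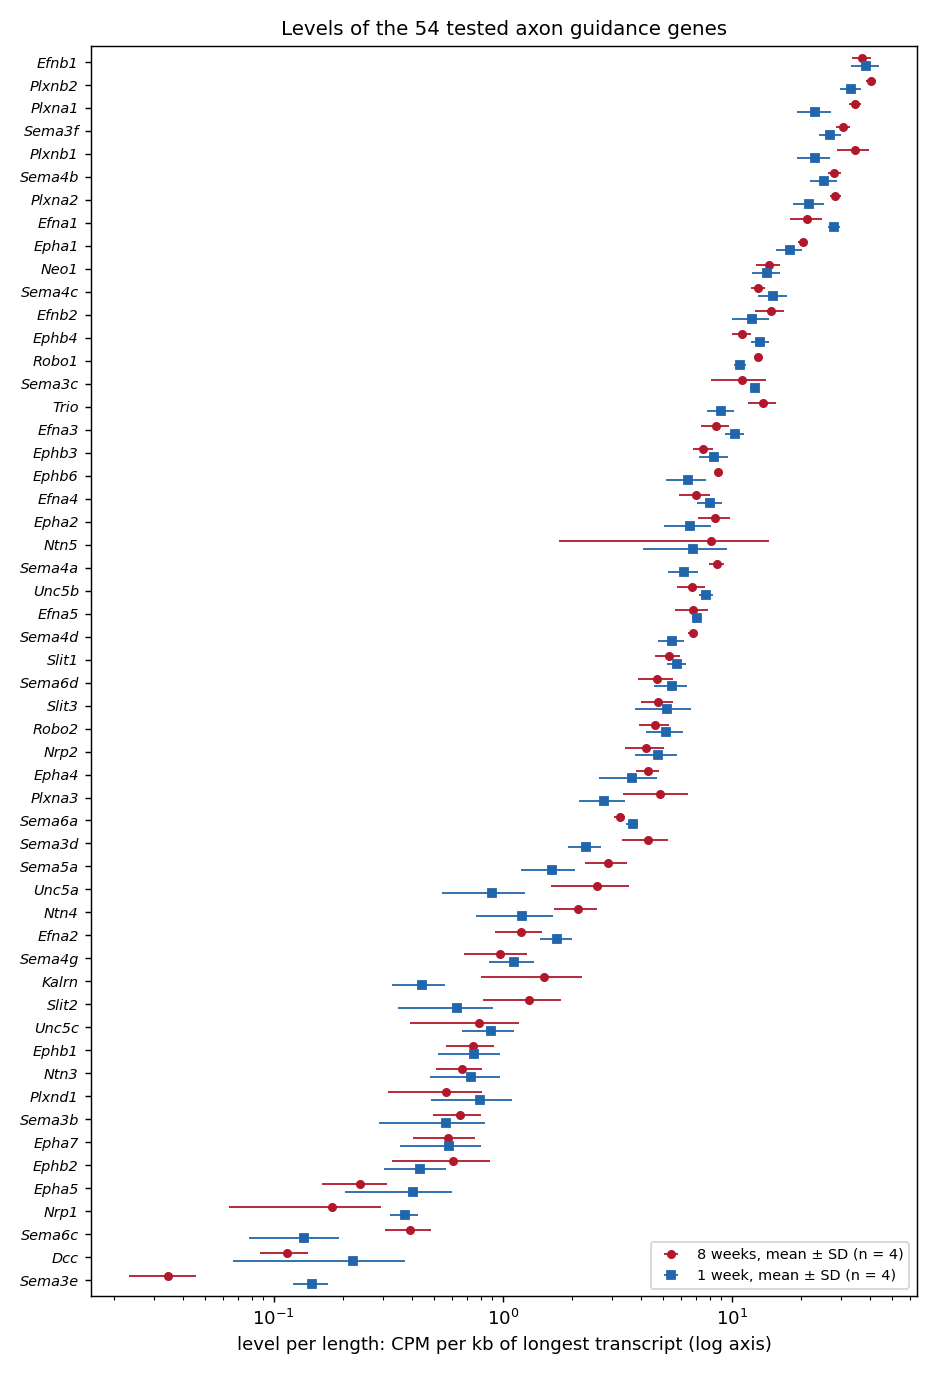
Level per kb of the longest transcript (CPM per kb, log scale) of the 54 tested members, ordered by level, with the mean ± SD at 8 weeks and at 1 week (n = 4 each). Efnb1, Plxnb2, Plxna1, Plxnb1 and Sema3f stand highest and Sema3e lowest.

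Among the secreted semaphorins, 7 members of which 5 were tested, Sema3d rose and Sema3e fell. Sema3d, a secreted semaphorin that acts on neural crest, endothelial and axonal migration, lies at chr5:12383385-12588948 (GRCm38). It had 25.8, 21.2, 35.9 and 25.5 CPM at 8 weeks, against 14.8, 11.97, 13.7 and 17.6 CPM at 1 week. Every 8-week library lay above every 1-week library, and 8 weeks 3 was the highest. The difference was 1.87-fold (log2 fold change 0.90, SE 0.17, adjusted p = 0.0165), and with the length and GC correction the log2 fold change was 0.71 (adjusted p = 0.0329). Its call was lost in 1 of the 8 fits that leave out a library, without 8 weeks 3 (adjusted p = 0.0533).

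Sema3e, which signals through Plxnd1 without needing a neuropilin, lies on the same chromosome at chr5:14025276-14256689. It was scarce, with 63 counts in all, 6, 3, 4 and 2 at 8 weeks against 14, 11, 12 and 11 at 1 week. In CPM it had 0.327, 0.224, 0.259 and 0.140 CPM at 8 weeks, against 1.25, 0.828, 0.968 and 0.979 CPM at 1 week. All 8-week libraries lay below all 1-week libraries. The fold of 8 weeks over 1 week was 0.247 (log2 fold change -2.01, SE 0.46, adjusted p = 0.0301), and -2.22 (adjusted p = 0.0322) after correction. The call did not hold without 8 weeks 1, 8 weeks 3, 8 weeks 4 or 1 week 1 (adjusted p up to 0.101) or when the filter on low counts was dropped (0.0567). Plxnd1, its receptor and a gene chosen for mention after its values were seen, had 3.90 ± 1.72 CPM at 8 weeks and 5.47 ± 2.104 CPM at 1 week and was not called (log2 fold change -0.50, adjusted p = 0.356).

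Sema3f and Sema3c, both secreted ligands of neuropilin and plexin complexes, were not called. Sema3f had 104 ± 6.93 CPM at 8 weeks and 91.3 ± 10.3 CPM at 1 week (log2 fold change 0.19, adjusted p = 0.255) and Sema3c had 60.8 ± 16.5 CPM at 8 weeks and 69.3 ± 3.11 CPM at 1 week (log2 fold change -0.19, adjusted p = 0.460). Sema3c lies at chr5:17574281-17730268, so that Sema3d, Sema3e, Sema3c and the untested Sema3a (chr5:13125414-13602565) share a stretch of chromosome 5. Within that stretch the tested genes had differences of both signs.

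Of 13 membrane-bound semaphorins, 9 were tested, 3 rose (Sema4a, Sema5a and Sema6c) and 0 fell, where 3.33% of all tested genes were called higher and 3.22% lower. Sema5a, a transmembrane semaphorin with thrombospondin repeats at chr15:32244810-32696341, had 29.2, 24.1, 39.4 and 31.8 CPM at 8 weeks, against 11.5, 16.6, 20.3 and 22.3 CPM at 1 week. The lowest 8-week library lay just above the highest 1-week library. It was 1.76-fold higher (log2 fold change 0.81, SE 0.19, adjusted p = 0.0327), with 0.53 (adjusted p = 0.100) after correction, and its call was lost in 5 of the 8 fits with a library left out (adjusted p up to 0.101), those without 8 weeks 1, 8 weeks 3, 8 weeks 4, 1 week 1 or 1 week 2.

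Sema6c, a transmembrane semaphorin of the class that binds plexins A, lies at chr3:95160457-95174024 and was low. It had 2.07, 1.496, 2.59 and 1.89 CPM at 8 weeks, against 0.537, 1.13, 0.565 and 0.534 CPM at 1 week. No values overlapped, and 1 week 2 was the nearest to the 8-week libraries. The difference was 2.86-fold (log2 fold change 1.52, SE 0.40, adjusted p = 0.0422), and 1.36 (adjusted p = 0.0804) with the correction. Its call was lost in 6 of 8 such fits (adjusted p up to 0.133), those without 8 weeks 1, 8 weeks 3, 8 weeks 4, 1 week 1, 1 week 3 or 1 week 4, and without the filter on low counts (0.0599).

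Sema4a, a class 4 semaphorin also known from immune cells, lies at chr3:88435959-88461182. It had 28.7, 24.3, 28.7 and 28.3 CPM at 8 weeks, against 23.5, 20.9, 16.5 and 18.6 CPM at 1 week. The groups did not overlap, and 3 of the 8-week values were within 1 CPM of each other. This was the smallest of the called differences, 1.38-fold (log2 fold change 0.47, SE 0.13, adjusted p = 0.0464), with 0.48 (adjusted p = 0.0627) after correction. The call was lost in 7 of 8 fits, all except the one without 8 weeks 2 (adjusted p up to 0.132), and without the filter on low counts (0.0595).

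Other membrane semaphorins of high level per kb did not pass the test. Sema4b had 111 ± 7.28 CPM at 8 weeks and 99.6 ± 13.5 CPM at 1 week (log2 fold change 0.15, adjusted p = 0.377) and Sema4c, a ligand of Plxnb2, had 50.7 ± 3.73 CPM at 8 weeks and 59.1 ± 8.59 CPM at 1 week (log2 fold change -0.22, adjusted p = 0.220). Sema4d, the ligand of Plxnb1, had 30.3 ± 1.44 CPM at 8 weeks and 24.5 ± 3.28 CPM at 1 week (log2 fold change 0.30, adjusted p = 0.109) and was chosen for mention after its values were seen.

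Plexins, the semaphorin receptors, were the receptor family with most calls. Of 9 plexins 6 were tested, and 3 rose and 0 fell. Over all tested genes 3.33% were called higher and 3.22% lower. All 6 lie in the bin with the longest transcripts, where 12.3% of genes were called higher and the median log2 fold change was 0.21. Fold changes were positive in 5 of the 6, with a median log2 fold change of 0.48, and 0.18 after the correction for length and GC content. With the correction 0 plexins were called. Plexins are long, with a median transcript of 7796 bp in those tested.

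Plxna1, at chr6:89316314-89362620, had 338, 296, 302 and 310.0 CPM at 8 weeks, against 163, 248, 204 and 221 CPM at 1 week. All 8-week values lay above all 1-week values, with 1 week 1 the lowest. It was 1.49-fold higher (log2 fold change 0.58, SE 0.12, adjusted p = 0.0240), with 0.28 (adjusted p = 0.0901) after correction. The call was lost without 8 weeks 1, 8 weeks 3 or 1 week 1 (adjusted p up to 0.0746). An antisense gene, Gm26811, overlaps 970 of its 9054 exonic bases, so reads from either could be counted to the other if strand was not used.

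Plxnb1, the receptor of Sema4d, lies at chr9:109095389-109119917 and had 358, 249.5, 307 and 273 CPM at 8 weeks, against 151, 225, 202 and 217 CPM at 1 week. The groups did not overlap, and 8 weeks 1 was the highest and 1 week 1 the lowest. The difference was 1.49-fold (log2 fold change 0.58, SE 0.14, adjusted p = 0.0357), and 0.28 (adjusted p = 0.105) after correction. In the fits without 8 weeks 1, 8 weeks 3, 8 weeks 4, 1 week 1 or 1 week 3 it was not called (adjusted p up to 0.110). The antisense gene Gm7628 overlaps 257 of the 9592 exonic bases of Plxnb1, with the same limit as for Plxna1.

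Plxna3, on the X chromosome at chrX:74329066-74344689, had 45.4, 21.9, 39.8 and 28.2 CPM at 8 weeks, against 16.9, 21.8, 14.4 and 24.04 CPM at 1 week. Here the groups overlapped, since 8 weeks 2 lay below 1 week 4 and close to 1 week 2. The means differed 1.76-fold (log2 fold change 0.82, SE 0.22, adjusted p = 0.0439), with 0.58 (adjusted p = 0.106) after correction. Its call was lost in 6 of 8 fits, without 8 weeks 1, 8 weeks 3, 8 weeks 4, 1 week 1, 1 week 2 or 1 week 3 (adjusted p up to 0.142).

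Per kb of transcript, Plxna2 had 28.3 ± 1.57 CPM per kb at 8 weeks and 21.8 ± 3.36 CPM per kb at 1 week and Plxnb1 had 34.3 ± 5.43 CPM per kb at 8 weeks and 23.0 ± 3.84 CPM per kb at 1 week, near the levels of Plxna1 and Plxnb2. Plxna2, a receptor for class 3 and class 6 semaphorins chosen for mention after its values were seen, had 312 ± 17.3 CPM at 8 weeks and 240.3 ± 37.1 CPM at 1 week (log2 fold change 0.38, SE 0.12, adjusted p = 0.0693), and 0.08 (adjusted p = 0.675) after correction. Plxnb2 had 263 ± 13.9 CPM at 8 weeks and 215 ± 22.9 CPM at 1 week (log2 fold change 0.29, SE 0.10, adjusted p = 0.0865), and 0.08 (adjusted p = 0.585) after correction. In both genes every 8-week library lay above every 1-week library, but neither passed the threshold. Of the neuropilins 0 were called by edgeR, and 0 passed an unadjusted p under 0.05, the DESeq2 Wald test or limma-voom. Nrp1, the co-receptor of Sema3a, was near the floor at 0.654 ± 0.421 CPM at 8 weeks and 1.36 ± 0.185 CPM at 1 week (log2 fold change -1.08, SE 0.56, adjusted p = 0.224), with all 8-week values below all 1-week values and a count of only 1 in 8 weeks 1. Nrp2, the co-receptor of Sema3f, had 28.4 ± 5.54 CPM at 8 weeks and 32.1 ± 6.70 CPM at 1 week (log2 fold change -0.18, adjusted p = 0.522).

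**Figure D4:**
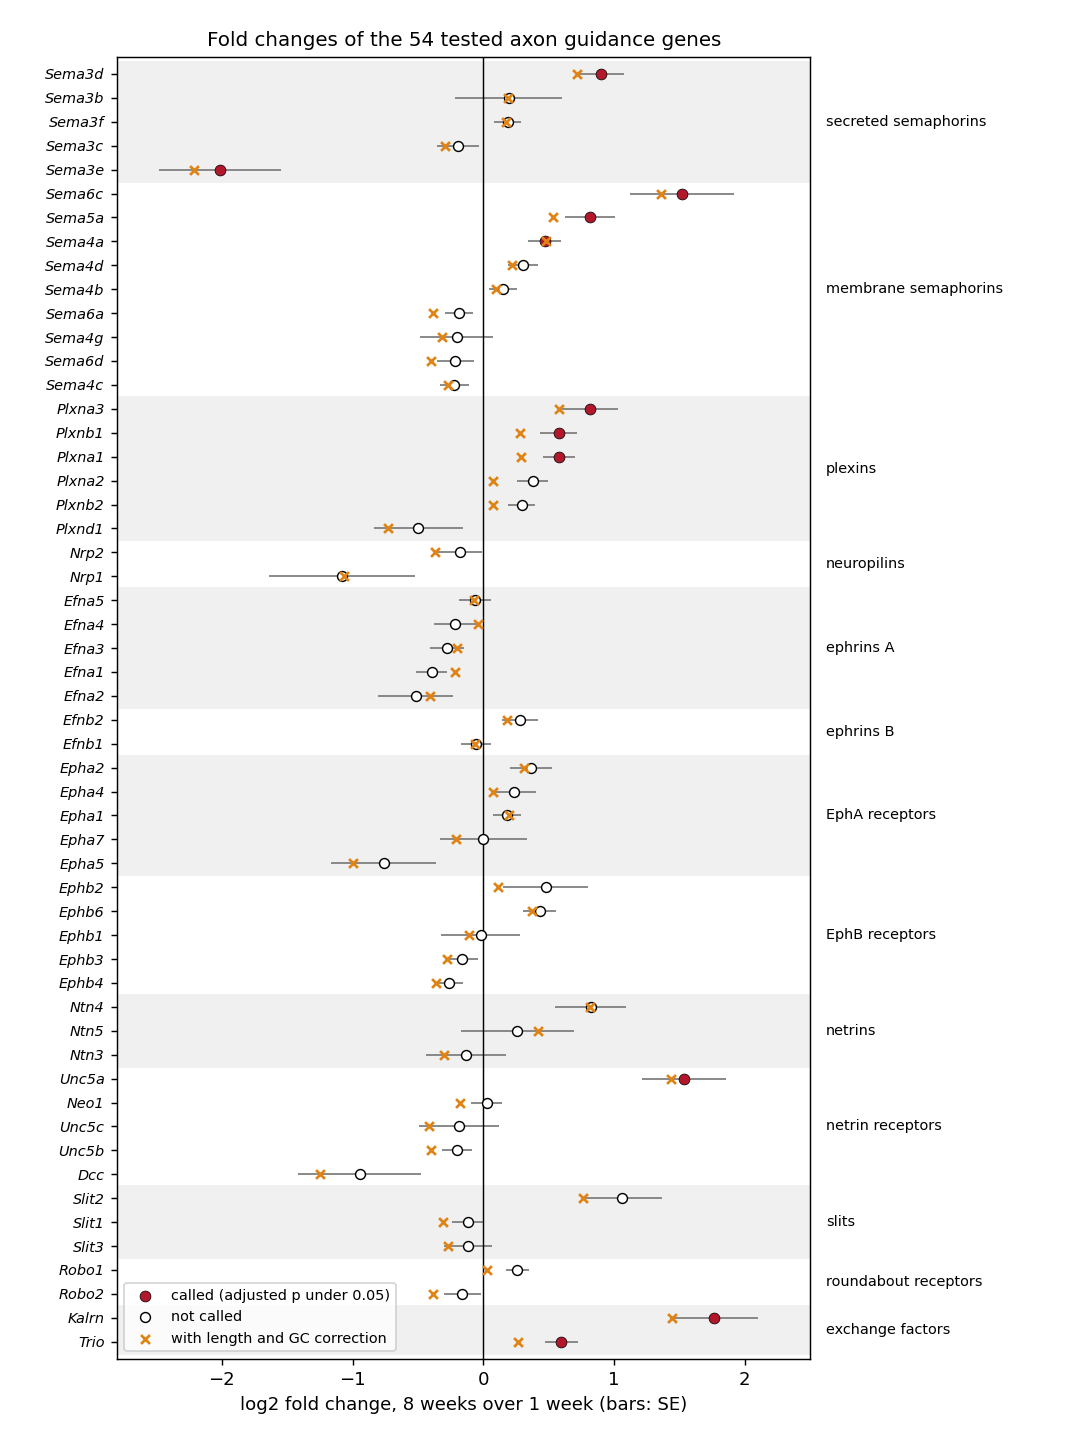
Log2 fold change (8 weeks over 1 week, horizontal axis) with its standard error for the 54 tested members, grouped by family, beside the value after correction for length and GC content. Kalrn, Unc5a and Sema6c lie farthest to the right and Sema3e farthest to the left, and the corrected values of the called plexins and Trio lie closer to 0.

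The ephrins and Eph receptors, which signal between touching cells, made up 22 members. Of the 17 tested, 0 were called by edgeR, against 6.55% of all tested genes. At an unadjusted p under 0.05 there were 2 higher (Epha2 and Ephb6) and 3 lower (Efna1, Efna3 and Ephb4), and the DESeq2 Wald test and limma-voom each called 2 (Efna1 and Ephb6). Efnb1, the ligand of highest level per kb, had 120.5 ± 11.4 CPM at 8 weeks and 125 ± 17.4 CPM at 1 week (log2 fold change -0.06, adjusted p = 0.772), and Efnb2, which marks arteries and basal epithelial cells, had 70.9 ± 10.2 CPM at 8 weeks and 58.5 ± 10.8 CPM at 1 week (log2 fold change 0.28, adjusted p = 0.205). All 5 class A ephrins, which are held in the membrane by a lipid anchor, had negative log2 fold changes with a median of -0.28, but with libraries scaled by size alone 1 of the 5 was positive. None of these 5 passed the test. Their median transcript was 2131 bp, near the short bins of all protein-coding genes, whose median log2 fold changes were -0.25 and -0.11, and with the length and GC correction the median of the 5 was -0.20.

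Efna1 was the class A ephrin nearest to the threshold. It had 30.1, 37.0, 30.6 and 41.4 CPM at 8 weeks, against 47.5, 47.7, 45.8 and 41.4 CPM at 1 week, and the means were 34.8 ± 5.41 CPM at 8 weeks and 45.6 ± 2.92 CPM at 1 week (log2 fold change -0.39, SE 0.12, adjusted p = 0.0617). The groups met at 41.4 CPM, the value of both 8 weeks 4 and 1 week 4. It passed without 8 weeks 2 (0.0498), and with the length and GC correction its log2 fold change was -0.22 (adjusted p = 0.188). Efna3 and Efna4, its neighbours on chromosome 3, had 20.1 ± 2.72 CPM at 8 weeks and 24.4 ± 2.38 CPM at 1 week (log2 fold change -0.28, adjusted p = 0.179) and 11.1 ± 1.72 CPM at 8 weeks and 12.9 ± 1.65 CPM at 1 week (log2 fold change -0.21, adjusted p = 0.414). Efna2 was low, at 2.56 ± 0.589 CPM at 8 weeks and 3.68 ± 0.591 CPM at 1 week (log2 fold change -0.52, SE 0.29, adjusted p = 0.256), with all 8-week values below all 1-week values.

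Epha1 and Epha2, both known as epithelial Eph receptors, had 66.6 ± 3.30 CPM at 8 weeks and 58.7 ± 7.68 CPM at 1 week (log2 fold change 0.18, adjusted p = 0.285) and 33.0 ± 5.17 CPM at 8 weeks and 25.7 ± 5.91 CPM at 1 week (log2 fold change 0.36, adjusted p = 0.159), and Epha2 passed without 1 week 4 (log2 fold change 0.53, adjusted p = 0.0495). Epha4, a receptor for both ephrin classes, had 27.2 ± 3.12 CPM at 8 weeks and 23.2 ± 6.57 CPM at 1 week (log2 fold change 0.23, adjusted p = 0.390), and the low Epha5 had 1.74 ± 0.551 CPM at 8 weeks and 2.96 ± 1.46 CPM at 1 week (log2 fold change -0.76, SE 0.40, adjusted p = 0.230). Among the class B receptors, Ephb6, which lacks kinase activity, was nearest to the threshold. It had 33.0, 32.2, 31.7 and 33.5 CPM at 8 weeks, against 21.3, 21.9, 22.3 and 31.3 CPM at 1 week. Every 8-week library lay above every 1-week library, and 1 week 4 was the highest of its group. The difference was 1.35-fold (log2 fold change 0.43, SE 0.13, adjusted p = 0.0600); it passed without 1 week 4 (log2 fold change 0.58, adjusted p = 0.0180) and with libraries scaled by size alone (0.0448).

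Of the other class B receptors, those named here did not pass the test. Ephb3, known from the ordering of intestinal epithelial cells, had 35.6 ± 3.59 CPM at 8 weeks and 39.8 ± 5.78 CPM at 1 week (log2 fold change -0.16, adjusted p = 0.404), and Ephb4, the receptor of Efnb2, had 48.0 ± 4.78 CPM at 8 weeks and 57.7 ± 5.27 CPM at 1 week (log2 fold change -0.27, adjusted p = 0.127). Ephb2 had 6.58 ± 2.98 CPM at 8 weeks and 4.74 ± 1.44 CPM at 1 week (log2 fold change 0.48, SE 0.32, adjusted p = 0.355), and 0.11 (adjusted p = 0.848) after correction.

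Of the 4 netrins, the ligands of Dcc and the Unc5 receptors, 3 were tested and 0 were called by edgeR, with 1 (Ntn4) at an unadjusted p under 0.05, and 1 by the DESeq2 Wald test and by limma-voom. Ntn4, a laminin-like netrin of basement membranes, had 7.85, 5.84, 9.89 and 7.51 CPM at 8 weeks, against 3.04, 3.31, 4.68 and 6.59 CPM at 1 week. The groups overlapped, with 1 week 4 above 8 weeks 2. The log2 fold change was 0.82 (SE 0.27, adjusted p = 0.0781), and it passed without 8 weeks 2 (0.0478) or without 1 week 4 (0.0386). Ntn5 had 14.3 ± 11.2 CPM at 8 weeks and 11.9 ± 4.71 CPM at 1 week (log2 fold change 0.26, adjusted p = 0.724) and shares 519 of its 2216 exonic bases with Sec1 on the opposite strand. Ntn3 had 3.34 ± 0.754 CPM at 8 weeks and 3.66 ± 1.25 CPM at 1 week (log2 fold change -0.13, adjusted p = 0.811).

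Of the netrin receptors, 6 members with 5 tested, Unc5a rose and the others did not pass. Unc5a, a receptor that mediates repulsion by netrins and, without its ligand, can trigger cell death, lies at chr13:54949411-55006018. It had 12.6, 5.61, 14.2 and 8.98 CPM at 8 weeks, against 3.40, 2.41, 2.91 and 5.61 CPM at 1 week. The groups did not overlap, but 8 weeks 2 and 1 week 4 both rounded to 5.61 CPM, and 8 weeks 1 and 8 weeks 3 were the highest. The difference was 2.90-fold (log2 fold change 1.54, SE 0.32, adjusted p = 0.0226), and 1.43 (adjusted p = 0.0457) with the correction. It was lost without 8 weeks 1, 8 weeks 3 or 1 week 1 (adjusted p up to 0.0746), and 34 of its exonic bases overlap Hk3 on the other strand.

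Unc5b and Neo1 did not pass the test. Unc5b had 39.4 ± 5.58 CPM at 8 weeks and 45.3 ± 3.16 CPM at 1 week (log2 fold change -0.20, adjusted p = 0.279). Neo1, the receptor that binds netrins and the repulsive guidance molecules, had 107 ± 12.5 CPM at 8 weeks and 105 ± 14.7 CPM at 1 week (log2 fold change 0.03, SE 0.12, adjusted p = 0.908), a value whose sign turned with the length and GC correction (-0.18). Dcc, the attractive netrin receptor, was near the floor at 1.18 ± 0.279 CPM at 8 weeks and 2.28 ± 1.596 CPM at 1 week (log2 fold change -0.95, adjusted p = 0.210) and was chosen for mention after its values were seen. Library 1 week 3 was the highest, at 4.44 CPM, and the log2 fold change was -0.40 without it and -0.50 with limma-voom.

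The 3 slits and the 2 tested Robo genes gave 0 calls with edgeR. At an unadjusted p under 0.05, 1 slit and 1 Robo gene passed (Slit2 and Robo1), and the same genes were called by the DESeq2 Wald test, but of them only Slit2 by limma-voom. Slit2 came closest, with 19.4, 10.03, 14.0 and 8.63 CPM at 8 weeks, against 4.74, 4.52, 10.4 and 5.34 CPM at 1 week. The groups overlapped, since 1 week 3 lay above 8 weeks 2 and 8 weeks 4. The means differed 2.08-fold (log2 fold change 1.06, SE 0.30, adjusted p = 0.0541), and Slit2 passed without 1 week 3 (log2 fold change 1.42, adjusted p = 0.0252) or without 8 weeks 2 (0.0370). Slit1 had 29.98 ± 3.80 CPM at 8 weeks and 32.6 ± 3.09 CPM at 1 week (log2 fold change -0.12, adjusted p = 0.543) and Slit3 had 24.9 ± 4.09 CPM at 8 weeks and 27.1 ± 7.45 CPM at 1 week (log2 fold change -0.12, adjusted p = 0.700). Robo1, a receptor of the slits, had 98.4 ± 4.10 CPM at 8 weeks and 82.2 ± 4.72 CPM at 1 week (log2 fold change 0.26, SE 0.09, adjusted p = 0.0823) with no overlap between the groups, but 0.03 (adjusted p = 0.839) after correction. Robo2 had 39.7 ± 5.79 CPM at 8 weeks and 44.3 ± 8.11 CPM at 1 week (log2 fold change -0.16, adjusted p = 0.490).

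Both exchange factors rose. Kalrn, best known from dendritic spines of neurons, had the greatest upward log2 fold change of the tested members. It lies at chr16:33969073-34573532 and had 19.0, 6.13, 23.2 and 14.5 CPM at 8 weeks, against 5.99, 3.69, 3.55 and 5.34 CPM at 1 week. The groups did not overlap, but 8 weeks 2 was close to 1 week 1, and 8 weeks 1 and 8 weeks 3 were the highest. The difference was 3.40-fold (log2 fold change 1.77, SE 0.34, adjusted p = 0.0169), and 1.44 (adjusted p = 0.0388) with the correction. It was lost without 8 weeks 1 (adjusted p = 0.0554) or 8 weeks 3 (0.0533).

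Trio, the widely expressed relative of Kalrn, lies at chr15:27730651-28025848 and had 186, 144, 158 and 137 CPM at 8 weeks, against 82.8, 112, 108 and 110.5 CPM at 1 week. All 8-week values lay above all 1-week values, and 1 week 1 was the lowest. Trio was 1.51-fold higher (log2 fold change 0.60, SE 0.12, adjusted p = 0.0226), with 0.26 (adjusted p = 0.0868) after correction, and the call was lost without 8 weeks 1, 8 weeks 3 or 1 week 1 (adjusted p up to 0.0696).

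Genes that work with these families were described from a list of 95 co-receptors and intracellular effectors, of which 84 were tested. Of these, 11 rose and 4 fell at 8 weeks, which is 17.9%, against 6.55% of all tested genes, and their median log2 fold change was 0.11. With the length and GC correction the counts were 4 higher and 3 lower, with a median of 0.01. That corrected fit called 1.2% of all tested genes higher and 1.56% lower. Of the 22 tested co-receptors and related surface proteins, 4 rose and 1 fell without the correction (22.7% called, against 6.55% of all tested genes). Flrt2, which binds Unc5 receptors, had 27.96, 24.3, 38.4 and 24.7 CPM at 8 weeks, against 10.4, 10.1, 15.01 and 16.3 CPM at 1 week (log2 fold change 1.16, SE 0.19, adjusted p = 0.0107), and 0.96 (adjusted p = 0.0212) after correction. The groups did not overlap. Rgma and Rgmb, the ligands of Neo1, had 105 ± 18.1 CPM at 8 weeks and 66.5 ± 11.1 CPM at 1 week (log2 fold change 0.65, SE 0.14, adjusted p = 0.0256) and 37.1 ± 4.64 CPM at 8 weeks and 23.5 ± 2.18 CPM at 1 week (log2 fold change 0.66, SE 0.12, adjusted p = 0.0140). Both stayed called with the correction, at 0.60 (adjusted p = 0.0282) and 0.51 (adjusted p = 0.0282). L1cam, the remaining co-receptor that rose, was named after its values were seen (log2 fold change 0.56, SE 0.15, adjusted p = 0.0422). With the correction L1cam was no longer called, at 0.43 (adjusted p = 0.0868). The co-receptor that fell was Flrt3 (log2 fold change -0.69, SE 0.18, adjusted p = 0.0415), named after its values were seen, and with the correction its log2 fold change was -0.70 (adjusted p = 0.0505), so that it was no longer called.

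Of 62 tested effectors, 7 rose and 3 fell (16.1% called, against 6.55% of all tested genes). The 5 that rose with the smallest adjusted p are given here. Tiam1, a Rac exchange factor, had 289 ± 31.1 CPM at 8 weeks and 195 ± 8.77 CPM at 1 week (log2 fold change 0.56, SE 0.10, adjusted p = 0.0140), and 0.33 (adjusted p = 0.0408) after correction. Dock1, another Rac exchange factor, had 164 ± 17.2 CPM at 8 weeks and 119 ± 7.15 CPM at 1 week (log2 fold change 0.46, SE 0.10, adjusted p = 0.0252), and 0.26 (adjusted p = 0.0683) after correction. Arhgef11, an exchange factor that binds plexins B, had 100.5 ± 11.4 CPM at 8 weeks and 74.5 ± 3.94 CPM at 1 week (log2 fold change 0.43, SE 0.10, adjusted p = 0.0317), and 0.22 (adjusted p = 0.125) after correction. Srgap2, a GTPase-activating protein of the Slit and Robo pathway, and Myo10, a myosin of filopodia, had log2 fold changes of 0.46 (adjusted p = 0.0368) and 0.40 (adjusted p = 0.0374), and of 0.22 (adjusted p = 0.201) and 0.15 (adjusted p = 0.378) after correction. Of these 5 genes only Tiam1 stayed called with the correction.

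Dpysl3, a collapsin response mediator protein downstream of semaphorins, and Limk1, the kinase that inactivates cofilin, fell. Dpysl3 had 42.8 ± 8.15 CPM at 8 weeks and 64.6 ± 10.3 CPM at 1 week (log2 fold change -0.60, SE 0.15, adjusted p = 0.0374), with -0.73 (adjusted p = 0.0359) after correction. Limk1 had 11.95 ± 0.980 CPM at 8 weeks and 17.6 ± 2.196 CPM at 1 week (log2 fold change -0.55, SE 0.14, adjusted p = 0.0391), with -0.57 (adjusted p = 0.0446) after correction. The other effector that fell was Enah, named after its values were seen (log2 fold change -0.36, adjusted p = 0.0430). With the correction Enah stayed called, at -0.66 (adjusted p = 0.00825). Library 8 weeks 3 weighed on the whole list, since without it 1 gene was higher and 0 were lower, and without 8 weeks 1 or without 1 week 1 the counts were 3 higher and 0 lower. Without 8 weeks 2 they were 14 higher and 6 lower, and over the other libraries left out in turn 7 to 9 were higher and 0 to 3 lower.

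In the authors' deposited table, made with DESeq2 per the submitters' processing notes, the calls took in 15 members, 14 of them higher and 1 lower at 8 weeks. That is 21.1% of the 71, against 6.61% of all genes with an adjusted p in the authors' deposited table. In that table the adjusted p was 1.9e-05 for Kalrn, 0.000163 for Sema3d, 0.000229 for Unc5a and 0.0318 for Sema3e. Of the members not called above, Slit2 (0.0135), Plxna2 (0.0307), Ntn4 (0.044) and Ephb6 (0.0459) were called there, in the authors' deposited table. The same 8 libraries underlie both sets of calls.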

How the data were processed

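The deposited table held raw read counts per gene for 8 libraries, 1 per animal, and every gene in it had at least 10 counts summed over them. The authors' normalized signal, log2 fold changes, Wald score and p-values stood beside the counts, and of these only the authors' log2 fold changes and adjusted p-values were used, for comparison. Per the submitters' processing notes, the build was GRCm38 and the tools were TopHat2 2.1.1, HTSeq 0.6.0 and DESeq2 1.26.0, beside bcl2fastq 2.20.0.422 and cutadapt 2.10. The annotation release and the strand setting were not given in the sources used here. Columns were matched to samples by the library names in the labels, and 0 were left unmatched.

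The test of the counts was run with edgeR 4.0.16 under R 4.3.3 (filterByExpr, minimum count 10 and minimum total 15; TMM; quasi-likelihood F test, two-sided; Benjamini-Hochberg over all 14533 tested genes). Fold changes are 8 weeks over 1 week. CPM values use TMM-scaled library sizes, and levels per kb use the longest GENCODE M21 transcript. The corrected fit removed, within each library, a spline with 4 degrees of freedom on length and on GC content. The scripts were tested on simulated data. DESeq2 1.42.0 and limma 3.58.1 (voom) served as alternatives, beside other scalings, other filters, each library left out, and a replicate block. Named genes were every called member, the 3 most abundant tested members of each family by level per kb, the member of each family with the greatest absolute fold change, and the called partners, at most the 10 of smallest p. Others are marked where they appear. The members, lists and this rule were chosen with earlier results of these data known. Nothing in the labels ties an animal at 8 weeks to one at 1 week.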

Additional observations from a re-analysis of the deposited data

Results flagged for a closer look

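In 14 of 108 groups of 4 libraries (13.0%), 1 library lay farther from the other 3 than Dixon's test allows at the 95% level; chance flags about 1 in 20 groups. The values are in CPM. Library 1 week 4 stood apart for Ephb6 (31.3, the others 21.3 to 22.3), Sema6d (43.6, the others 31.6 to 33.7) and Efna4 (10.4, the others 13.6 to 13.9). Library 1 week 1 did so for Trio (82.8, the others 108 to 112) and Neo1 (83.1, the others 110.0 to 114). Library 1 week 2 was high for Sema6c (1.13, the others 0.534 to 0.565) and Sema4c (71.8, the others 53.3 to 56.2), and 1 week 3 for Slit2 (10.4, the others 4.52 to 5.34).

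Of the 8-week libraries, 8 weeks 4 was low for Efna2 (1.68, the others 2.77 to 2.91) and high for Efna4 (13.7, the others 10.1 to 10.4). Library 8 weeks 3 was low for Epha1 (61.7, the others 68.0 to 68.4) and Unc5b (31.0, the others 42.1 to 42.3). Library 8 weeks 2 was low for Sema4a (24.3, the others 28.3 to 28.7), and 8 weeks 1 was high for Sema4c (56.2, the others 48.5 to 49.4).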

How the results depend on the processing

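Of the results below, the cause of each change was not tested unless named. Members called higher (10) numbered 16 with the DESeq2 Wald test, 3 with the length and GC correction, and 0 to 12 with libraries left out. Members called lower (1) numbered 0 with no filter and 0 with a stricter filter, under which Sema3e was not tested. They numbered 2 with limma-voom, 0 to 2 with libraries left out, and 0 to 3 with the correction and a library left out. Pathway partners called higher (11) numbered 4 with the correction and 0 to 14 with libraries left out; those called lower (4) numbered 0 with library size alone or no filter and 0 to 6 with libraries left out. Over all genes, 952 were called, and 2034 with the DESeq2 Wald test, 1640 with limma-voom, 592 with no filter and 401 with the correction. With 1 library left out 91 to 1891 were called, and 57 to 531 with the correction as well. Same-numbered libraries of the 2 ages did not deviate together (correlations -0.34, -0.14, -0.09 and -0.12). Library-wide trends such as the length slopes enter these correlations, so they cannot settle whether the numbers stand for a pairing. With a replicate block by title, members numbered 4 higher and 0 lower and partners 2 higher and 0 lower (161 genes in all). The block by library name also dropped 8 weeks 3 and 1 week 3, whose library numbers did not occur at the other age. In that fit members and partners numbered 0 and 0, and 1 and 0 (92 genes). The effect of this block and that of losing these libraries cannot be told apart. With the title block plus length and GC correction they numbered 1 and 0, and 1 and 1 (139 genes). Among the members named by the rule above, log2 fold changes that turned sign belonged to uncalled genes. They were Efnb1 (0.030 with library size alone, 0.027 with the library-name block), Neo1 (-0.024 with limma-voom, -0.18 with the correction, -0.19 with block and correction), Ntn5 (-0.28) and Slit3 (0.17), both with the library-name block. With libraries left out, with or without correction, values ran from -0.33 to 0.048 for Efna4, -0.21 to 0.054 for Efnb1, -0.031 to 0.44 for Epha4, -0.13 to 0.68 for Ephb2, -0.29 to 0.15 for Neo1, -0.51 to 0.011 for Nrp2, -0.48 to 0.33 for Ntn3, -0.42 to 0.69 for Ntn5, -0.49 to 0.0071 for Robo2, -0.44 to 0.11 for Sema3c and -0.43 to 0.050 for Slit3. Choices added after seeing the data were the fits without 8 weeks 1 and 8 weeks 3 together (0 members called, 12 genes in all), those without 1 week 1 and 1 week 4 together (2 members higher, 60 genes in all), and the correction with each library left out. In the last, Kalrn, Unc5a and Sema3d each lost their call in 6 of 8 fits and Sema3e in 5 (adjusted p up to 0.116, 0.136, 0.102 and 0.104). Depth limits what can be said of Sema3e, Sema6c, Nrp1 and the 17 untested members.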
